A study of Mus musculus with 6 samples.

Results

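A set of 10 retinoic acid genes was followed in tissue on the ventral and dorsal sides of the mouse embryonic aorta. They are the retinol carrier Rbp4 and its cell-surface receptor Stra6, the retinaldehyde dehydrogenases Aldh1a2 and Aldh1a3, the degrading enzymes Cyp26a1 and Cyp26b1, the intracellular carriers Crabp1 and Crabp2, and the nuclear receptors Rara and Rarb. They were chosen by gene symbol, and each of the 10 was measured by 1 probe set among 24675 probe sets with a single gene symbol. The ventral group was tissue underneath the aorta and the dorsal group was tissue between the notochord and the aortic roof, with 3 arrays each, all from C57Bl/6 embryos at embryonic day 10.5. The embryos carried no stated allele or treatment, and both regions were cut by laser microdissection from frozen sections of the same embryos. The sources used here do not give the number of embryos behind an array. Signals were normalised by RMA and stand on a log2 scale, so a difference of 1 is a 2-fold difference in signal.

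Retinoic acid is made from vitamin A in a short chain of steps. Rbp4 carries retinol in the blood, Stra6 takes it up at the cell surface, retinol is oxidised to retinal, and Aldh1a enzymes oxidise retinal to retinoic acid. Cyp26 enzymes break retinoic acid down, so a tissue's exposure depends on both sides of this balance. Inside the cell Crabp proteins bind it, and Rar proteins, paired with Rxr proteins, bind response elements in DNA and switch on target genes when it is present. In the mouse embryo Aldh1a2 makes most of the trunk's retinoic acid, from mesoderm, and signalling through Rara has been tied to the formation of blood stem cells from the aortic endothelium.

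Rarb and Cyp26a1 are both parts of the pathway and classical targets of it, and their promoters are shown because each holds a retinoic acid response element just before the start of the gene. The stretches are the 80 bases before the start in RefSeq on GRCm38.p6, on the gene's strand, at chr14:16575477-16575556 (minus strand) for Rarb and chr19:37697728-37697807 (plus strand) for Cyp26a1. Capitals mark the half-sites of a direct repeat spaced by 5 bases.
Rarb: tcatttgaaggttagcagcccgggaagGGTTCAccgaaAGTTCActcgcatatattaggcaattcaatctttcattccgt
Cyp26a1: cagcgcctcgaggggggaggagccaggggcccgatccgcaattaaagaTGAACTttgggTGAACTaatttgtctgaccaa
The repeat lies 53 to 37 bases before the start of Rarb and reads along the gene. In Cyp26a1 it lies 32 to 16 bases before the start on the opposite strand, where it reads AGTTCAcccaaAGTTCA. A half-site was taken to be the consensus AGGTCA. The form AGTTCA was also accepted. Another accepted form was GGGTCA, and the search was closed with a last one, GGTTCA. Both strands were read, in windows from 250 bases before to 50 bases after a start. A direct repeat with 5 bases between the half-sites was found in 32 of 32851 windows (0.0974%), against 73 windows with 1 base between them (0.222%) and 88 with 2 bases (0.268%). Windows were given for 8 of the 10 genes, 15 windows in all, and no window of Stra6, Rbp4, Aldh1a2, Cyp26b1, Crabp1 or Rara held a repeat of these 3 kinds. A match describes the letters of the reference only.

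No retinoic acid gene separated the ventral from the dorsal side past the threshold. Stra6 had the clearest ventral lean, 1.38-fold, and Cyp26b1 and Rbp4 the clearest dorsal leans, with ventral signals 1.40-fold and 1.37-fold lower. The comparison asks which side of the aorta carries more transcript of each step of the pathway. Each gene was tested with limma's moderated test, with the replicate number as a block and Benjamini-Hochberg adjustment over all 24675 genes. At an adjusted p of 0.05 limma called 0 of the 10 genes and 0 of all genes (0%), with adjusted p between 0.466 and 0.883 for the 10 genes and a lowest value of 0.197 over all genes. At an unadjusted p of 0.05, limma counted 2 of the 10, Stra6 and Cyp26b1, against 10.2% of all genes. Without the block it also counted 2 of the 10, Stra6 and Rbp4, against 11.2% of all genes. After adjustment it called none of the 10 without the block, and 0.00405% of all genes. The groups did not overlap in 2 of the 10 genes, against 18.7% of all genes: all ventral arrays were above all dorsal arrays in Stra6, as in 6.74% of genes, and below them in Rbp4, as in 12.0% of genes. These shares of the 10 are near the background. With 3 against 3 arrays an exact permutation test cannot give a two-sided p below 0.1. The labels number the arrays of a group as biological replicates without saying whether they came from separate embryos or litters.

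The genes were evenly divided in direction: 5 log2 fold changes were positive and 5 negative, with a median of -0.06, the same as the median of all genes. The 95% interval of the difference lay within 2-fold in either direction for 9 of the 10 genes, the exception being Crabp2, and for 8 without the block, where Cyp26b1 also reached beyond it. Most of the genes were dim, which limits what these intervals say about transcript amounts. The table holds no detection calls, so olfactory and vomeronasal receptor genes, which are mostly silent outside sensory neurons, were used to show the dim range of the array. Of 1365 such genes 95% had a 6-array mean below 4.66, and only Stra6, at 5.06, and Crabp2, at 5.07, lay above this value. The other 8 had means between 2.40 for Crabp1 and 3.74 for Rara, within the range of these receptor genes. Probe sets differ in how brightly they report, so the signals of different genes give no order of transcript amounts.

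**Figure D1:**
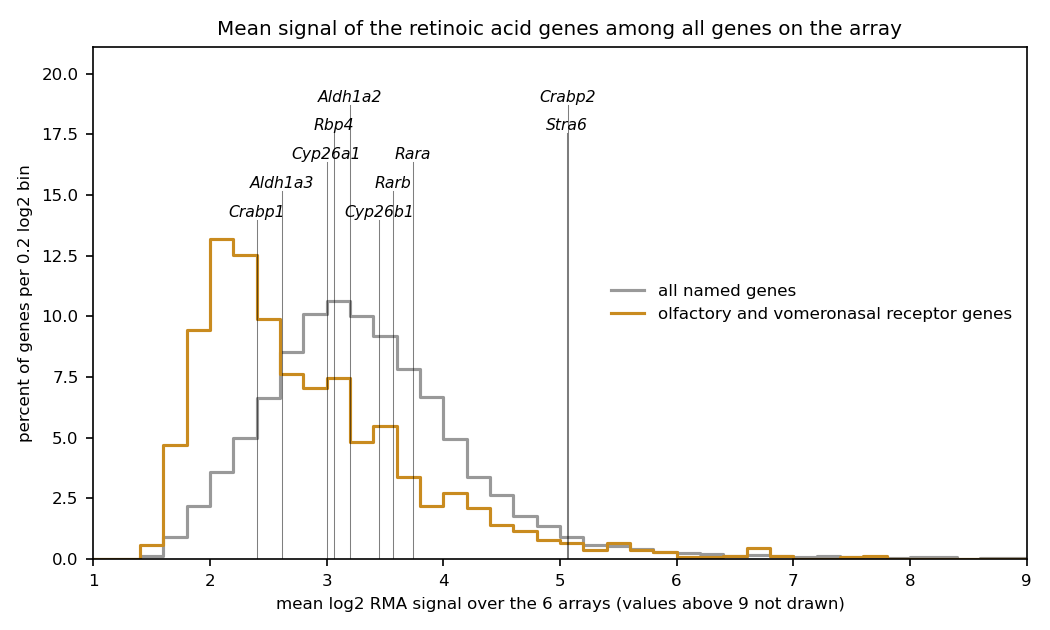
Distribution of the 6-array mean log2 RMA signal (x axis) as the percent of genes per bin (y axis), for all named genes in grey and for olfactory and vomeronasal receptor genes in orange. Vertical lines mark the 10 retinoic acid genes; Stra6 (5.06) and Crabp2 (5.07) stand to the right of most receptor genes, and the other 8 lie between 2.40 and 3.74.

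The arrays themselves were uneven. Across genes, which are not independent replicates, Pearson correlations were 0.887 to 0.898 between ventral arrays and 0.813 to 0.828 between dorsal arrays. The median standard deviation of the 10 genes was 0.19 over ventral and 0.31 over dorsal arrays, beside 0.18 and 0.26 over all genes. The arrays were set against lists of tissue markers. The mean log2 signal over 10 somite and sclerotome markers was 3.66 to 3.70 in ventral arrays and 3.86 to 4.05 in dorsal arrays, with 3 positive and 7 negative log2 fold changes. The mesenchymal transcription factor Twist1 averaged 5.12 ± 0.81 in ventral and 6.52 ± 0.13 in dorsal tissue (SD, n = 3 each; limma adjusted p 0.435). Without Twist1 the list averaged 3.43 to 3.60 in ventral and 3.56 to 3.79 in dorsal arrays, which overlap. Foxc2 (log2 fold change -0.50, limma adjusted p 0.464) and Uncx (-0.65, limma adjusted p 0.495) also had every dorsal array above every ventral array. With Twist1 these were 3 of the 10 markers, against 12.0% of all genes. Without all 3 the other 7 averaged 3.42 to 3.54 in ventral and 3.42 to 3.63 in dorsal arrays. The 10 endothelial markers averaged 3.19 to 3.35 in ventral and 3.20 to 3.32 in dorsal arrays, near the array medians of 3.20 to 3.27. Log2 fold changes were positive in 3 and negative in 7 of 10 coelomic epithelium and mesothelium markers. Among 12 liver and gut endoderm markers they were positive in 4 and negative in 8. Neither of these lists leaned ventral, so the markers set the ventral label apart less well than the dorsal one.

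**Figure D2:**
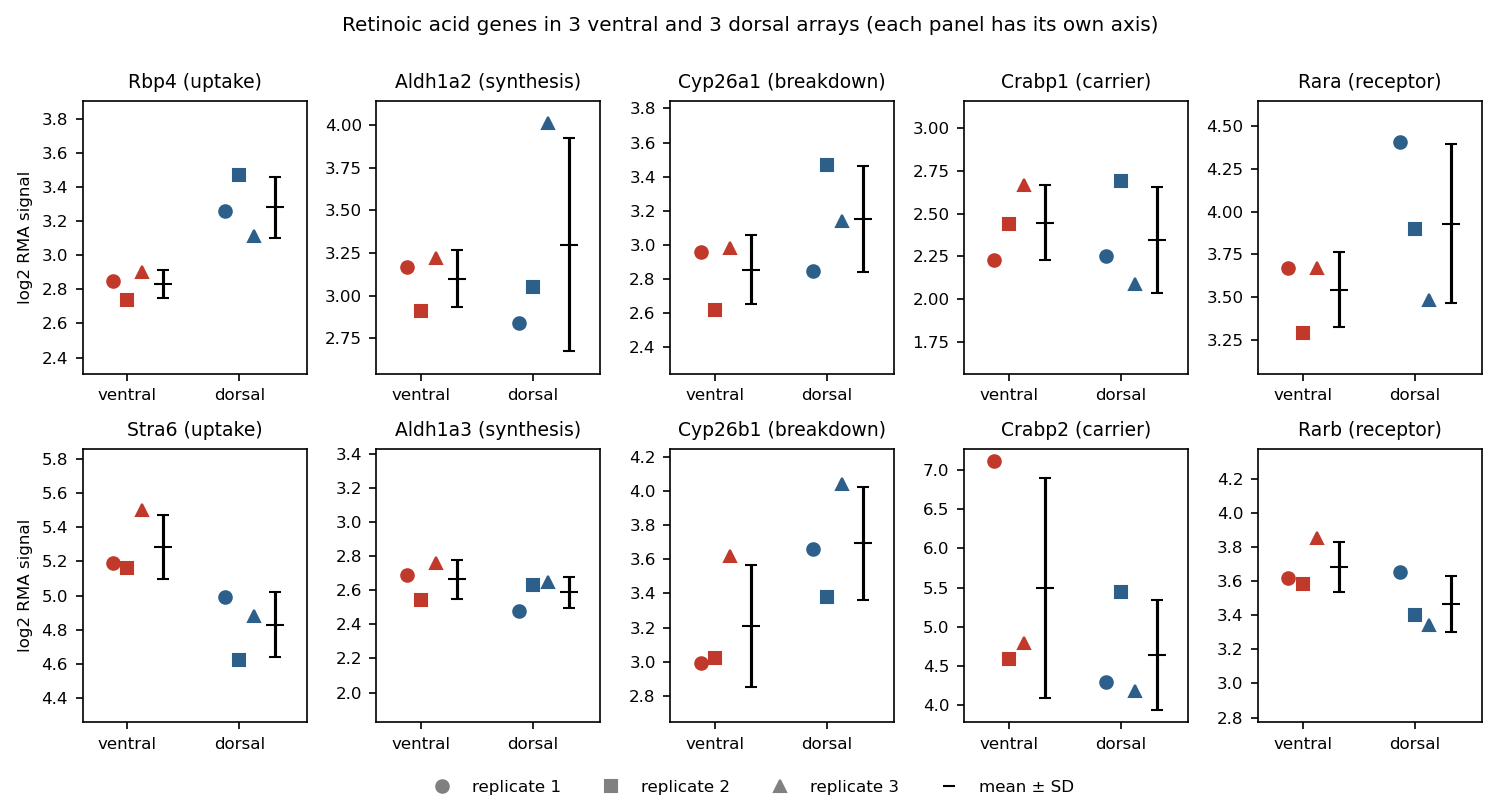
Log2 RMA signal (y axis, a separate axis for each gene) of the 10 retinoic acid genes in 3 ventral (red, left) and 3 dorsal arrays (blue, right); the marker shape is the replicate number and the black bars are the mean ± SD of 3 arrays. Stra6 and Rbp4 are the only panels in which the groups do not overlap, and single arrays stand apart in Crabp2 (ventral replicate 1, 7.11) and Aldh1a2 (dorsal replicate 3, 4.01).

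The uptake genes leaned in opposite directions. Stra6, the membrane receptor that brings retinol into cells, was at 5.19, 5.16 and 5.50 in ventral arrays 1, 2 and 3, against 4.99, 4.62 and 4.88 in dorsal arrays. Every ventral array lay above every dorsal array, by a gap of 0.18, which is smaller than the range within either group. The log2 fold change was 0.46 ± 0.18 (SE), with a 95% interval from 0.01 to 0.91, an unadjusted p of 0.0459 and an adjusted p of 0.484 in limma. Without the block the interval was 0.05 to 0.87, the unadjusted limma p 0.0329 and the adjusted p 0.409. Stra6 was the only one of the 10 genes with a higher ventral signal in all 3 pairs of equal number, as were 13.3% of all genes. Bright receptor genes moved the same way: among the olfactory and vomeronasal genes, the 47 with a mean of 5 or more had a median difference of 0.38 on the log2 scale, and 76.6% of them were positive, against a median of 0.08 for all 1108 genes in that range. Crabp2 lay in the same range. Receptor genes with a mean of 3 to 4, a range that held Rarb, Rara and both Cyp26 genes, had a median of 0.17. Of these, 63% were positive, and the median of all genes in that range was -0.03. Receptor genes with a mean below 3 had a median of -0.16. These signal ranges were set after the data had been seen, and their part in the difference of Stra6 or any other gene was not tested. In bulk tissue, fewer cells of a type and less RNA per cell cannot be told apart, here or in the genes that follow.

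Rbp4, the carrier of retinol in blood, made chiefly by liver and visceral endoderm, was at 2.85, 2.74 and 2.90 in ventral arrays and at 3.26, 3.47 and 3.11 in dorsal arrays. All ventral arrays lay below all dorsal arrays, with a gap of 0.21. This gave a log2 fold change of -0.45 ± 0.19, with an interval from -0.92 to 0.01 and an adjusted p of 0.490 in limma. Without the block its unadjusted limma p was 0.0233 and the adjusted p 0.391. The ventral signals lay below the array medians, and 67.0% of the receptor genes were dimmer than Rbp4 on average, so neither group was shown to be above background. The mean over 12 liver and gut endoderm markers was 3.47 to 3.56 in ventral and 3.48 to 3.68 in dorsal arrays. Afp, the fetal liver protein, was at 3.24 ± 0.11 in ventral and 3.56 ± 0.15 in dorsal tissue, and the endodermal factor Foxa3 leaned the other way, at 3.95 ± 0.21 and 3.42 ± 0.26. Their part in the Rbp4 difference was not tested.

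The synthetic enzymes showed no difference between the sides that exceeded the spread. Aldh1a2, the main retinoic acid-making enzyme of trunk mesoderm, was at 3.17, 2.91 and 3.22 in ventral arrays, against 2.84, 3.05 and 4.01 in dorsal arrays. Dorsal array 3 stood 0.78 above ventral array 3, while ventral array 1 stood 0.33 above dorsal array 1. The log2 fold change was -0.20 ± 0.25 (interval -0.82 to 0.43, limma adjusted p 0.787), and it became 0.16 without dorsal array 3 in a fit without the block and 0.10 without both arrays numbered 3. In dorsal array 3 the mean over 10 markers of coelomic epithelium and mesothelium, tissues that contain Aldh1a2, was 3.95, the highest of the 6 arrays, while the other dorsal arrays were at 3.50 and 3.72 and the ventral arrays at 3.62 to 3.72. Not every marker was highest there: Gata4 was, at 5.16, while Tcf21 was highest in ventral array 1, at 4.95. The 9 neural tube and motor neuron markers other than Sox2 also averaged highest in dorsal array 3, at 3.48. The part of these tissues in the Aldh1a2 value was not tested. Aldh1a3, the related enzyme known from eye and nasal regions, was at 2.69, 2.54 and 2.76 in ventral and 2.48, 2.63 and 2.65 in dorsal arrays, near the level of the receptor genes. Its log2 fold change was 0.08 ± 0.17 (interval -0.35 to 0.50).

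Both degrading enzymes had lower mean signals on the ventral side, and neither passed the test. Cyp26b1, which removes retinoic acid in limb buds and fetal testis, was at 2.99, 3.02 and 3.62 in ventral arrays and at 3.66, 3.38 and 4.04 in dorsal arrays. The groups overlapped because ventral array 3 lay above dorsal array 2, although each ventral array lay below the dorsal array of the same number, by 0.67, 0.36 and 0.42. Its log2 fold change was -0.48 ± 0.17, with an interval from -0.91 to -0.05, an unadjusted p of 0.0338 and an adjusted p of 0.466 in limma. This rank rests on the pairing: without the block the interval was -1.06 to 0.09 and the unadjusted limma p 0.0881. Same-number differences all below 0 were found in 2 of the 10 genes, Cyp26b1 and Rbp4, and in 21.8% of all genes.

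Cyp26a1, the enzyme that clears retinoic acid from the tail bud and the early head, was at 2.96, 2.62 and 2.98 in ventral arrays and at 2.85, 3.47 and 3.14 in dorsal arrays. The groups overlapped through dorsal array 1, and the log2 fold change was -0.30 ± 0.24 (interval -0.88 to 0.28, limma adjusted p 0.665). Without both arrays numbered 2 it was -0.03. The mean of the synthetic pair minus the mean of the degrading pair, taken within each array, was -0.04, -0.10 and -0.31 in ventral arrays and -0.59, -0.59 and -0.26 in dorsal arrays. The groups overlapped only through ventral array 3 and dorsal array 3, and the mean difference between the sides was 0.33. This combination was formed after the data had been seen and is given without a test.

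The intracellular carriers gave the widest and the dimmest values of the 10 genes. Crabp2, which delivers retinoic acid to nuclear receptors, was at 7.11, 4.59 and 4.79 in ventral arrays and at 4.30, 5.45 and 4.19 in dorsal arrays. Ventral array 1 stood far above the other 5 arrays, and the remaining ventral values lay within the dorsal range. Its log2 fold change of 0.85 ± 0.65 had an interval from -0.76 to 2.45 and an adjusted p of 0.660 in limma. It was 0.04 without ventral array 1 in a fit without the block, -0.13 without both arrays numbered 1 and 1.70 without both arrays numbered 2. In ventral array 1 Sox2, a transcription factor of neural progenitors, was at 7.61, against 2.20 and 2.72 in the other ventral arrays and 2.28, 2.57 and 2.73 in dorsal arrays. The mean over the 10 neural tube and motor neuron markers was 3.73 in ventral array 1, against 3.01 to 3.23 in the other ventral and 3.11 to 3.41 in dorsal arrays, but this mean rests on Sox2. Without Sox2 the other 9 markers averaged 3.30 in ventral array 1, against 3.10 and 3.29 in the other ventral and 3.20, 3.21 and 3.48 in dorsal arrays, and only 2 of the 10 markers were highest in ventral array 1. The part of neural tissue in the Crabp2 value was not tested.

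Crabp1, a carrier known from hindbrain and neural crest cells, was at 2.23, 2.44 and 2.67 in ventral and 2.25, 2.69 and 2.09 in dorsal arrays. Its mean stood above those of 40.4% of the receptor genes, the lowest share among the 10. Its log2 fold change was 0.11 ± 0.22 (interval -0.43 to 0.65), and it was -0.02 without dorsal array 3 and 0.00 without ventral array 3, both in fits without the block. The 7 measured markers of neural crest and sympathetic neurons averaged 3.59 to 3.83 in ventral and 3.63 to 3.79 in dorsal arrays.

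The receptors leaned in opposite directions, within the spread. Rara, the widely expressed receptor, was at 3.67, 3.29 and 3.67 in ventral arrays and at 4.41, 3.90 and 3.48 in dorsal arrays. Dorsal arrays 1 and 2 lay above all ventral arrays and dorsal array 3 did not. This gave a log2 fold change of -0.39 ± 0.24 (interval -0.97 to 0.20, limma adjusted p 0.592), with -0.15 without dorsal array 1 and -0.61 without dorsal array 3 in fits without the block. Rarb, whose promoter element is shown above, was at 3.62, 3.58 and 3.85 in ventral arrays and at 3.65, 3.40 and 3.34 in dorsal arrays. The overlap came from dorsal array 1 alone, and the log2 fold change was 0.22 ± 0.19 (interval -0.25 to 0.69, limma adjusted p 0.689). It was 0.14 without ventral array 3 in a fit without the block, and 0.08 without both arrays numbered 3. Within arrays, Rarb minus Rara was -0.05, 0.29 and 0.19 in ventral and -0.76, -0.50 and -0.14 in dorsal arrays, so the groups did not overlap, with a gap of 0.10. The pair was set side by side after the values had been seen, it was not tested, and neither gene passed the test on its own. Among single genes 18.7% had groups without overlap, which is not a background for the difference of 2 genes that lean opposite ways. No share over other pairs of genes was taken. Of the other differences formed within arrays, Stra6 minus Rbp4 also had no overlap (gap 0.58) and Crabp2 minus Crabp1 overlapped. The genes with the repeat in their promoter had log2 fold changes of opposite sign, 0.22 for Rarb and -0.30 for Cyp26a1, and neither interval excluded 0. A link between the repeat and the signal was not tested.

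**Figure D3:**
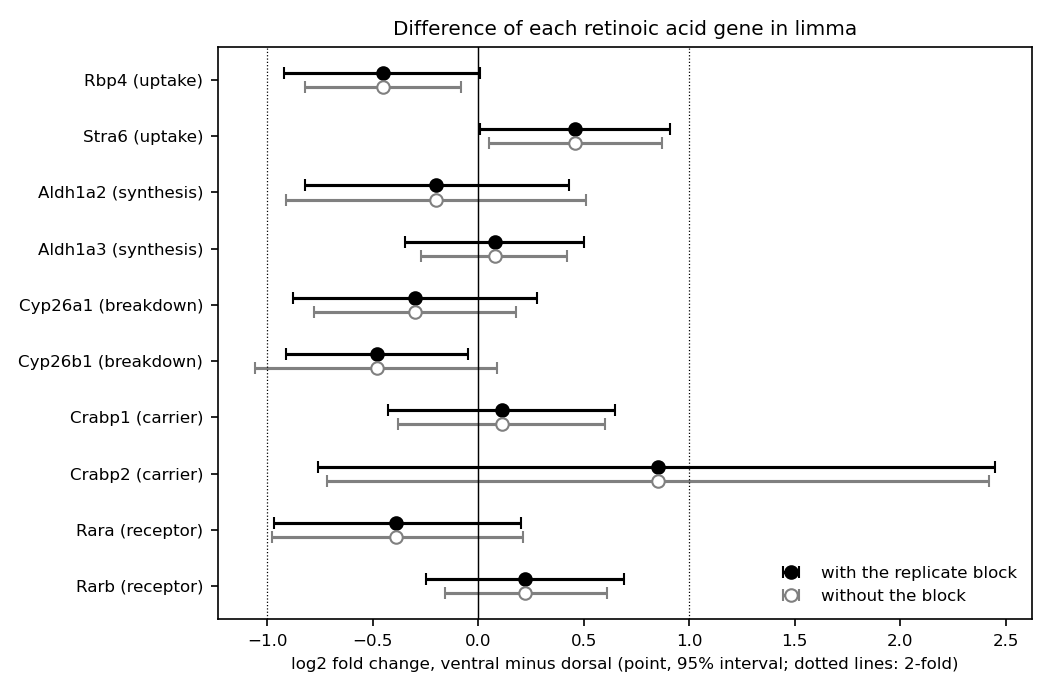
Log2 fold change, ventral minus dorsal (x axis), of the 10 retinoic acid genes in order of their role, as points with 95% intervals from limma with the replicate block (black) and without it (grey). With the block the intervals of Stra6 (0.01 to 0.91) and Cyp26b1 (-0.91 to -0.05) exclude 0, Crabp2 has the widest interval (-0.76 to 2.45), and no gene passes after adjustment over all genes. Without the block the intervals of Stra6 (0.05 to 0.87) and Rbp4 (-0.82 to -0.08) exclude 0, and that of Cyp26b1 (-1.06 to 0.09) does not.

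The wider pathway showed as little separation. Of 71 further genes in 5 lists 64 were measured, and limma called 0 of them at an adjusted p of 0.05, with or without the block. At an unadjusted p of 0.05 limma counted 1 ventral-leaning gene, Carm1, and 1 dorsal-leaning gene, Hoxb4, against 4.32% and 5.90% of all genes. Without the block limma counted 0 of the 64 at that p, against 11.2% of all genes. Their log2 fold changes were positive in 28 and negative in 36 genes, with a median of -0.02. None of the listed genes had a mean above the 95th percentile of the receptor genes. Groups without overlap and higher ventral signals were found in 1 of 11 uptake genes and 2 of 16 enzymes. The same held for 1 of 15 receptor partners and coregulators and 1 of 22 responsive genes, against 6.74% of all genes. Higher dorsal signals without overlap were found in 1 of the 15 receptor partners and coregulators, against 12.0% of all genes. These few genes are not read as a result about the lists.

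Among 11 measured genes of retinol uptake, storage and transport the median log2 fold change was 0.00, with 6 positive and 5 negative. Ttr, which binds Rbp4 in the blood, was at 3.82, 4.08 and 3.92 in ventral and 3.67 to 3.8 in dorsal arrays, without overlap (log2 fold change 0.20, limma adjusted p 0.694). Stra6l, a second retinol transporter and the brightest of the list, was at 4.69 ± 0.11 in ventral and 4.58 ± 0.41 in dorsal tissue. The interval of its difference was -0.46 to 0.66.

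Among 16 measured retinol and retinal enzymes the median was -0.03, with 7 positive and 9 negative values. Rdh13, a retinol dehydrogenase family member, was at 4.39, 4.11 and 4.23 in ventral and 3.92, 3.84 and 3.94 in dorsal arrays, without overlap (log2 fold change 0.34, limma adjusted p 0.533). Adh4, an alcohol dehydrogenase that oxidises retinol, had -0.34 and Adh7, another, -0.33. Aldh1a1, the third retinaldehyde dehydrogenase and the brightest of the list, was at 4.51 ± 0.18 in ventral and 4.77 ± 0.39 in dorsal tissue (log2 fold change -0.26, interval -0.84 to 0.31). Rdh10, which performs the preceding step in the embryo, had 0.10, and Cyp26c1, the third degrading enzyme, had -0.21 with a limma adjusted p of 0.747. The interval of Cyp26c1 was -0.74 to 0.33. The 3 Cyp26 genes all had negative values, as did 58.0% of all genes.

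Among 15 measured receptor partners and coregulators the median was -0.02, with 7 positive and 8 negative values. Carm1, an arginine methyltransferase that acts with nuclear receptors, was at 4.46, 4.36 and 4.07 in ventral and 3.85, 4.10 and 3.43 in dorsal arrays. The groups overlapped slightly, and the log2 fold change was 0.50 (limma unadjusted p 0.0331, adjusted p 0.466). Without the block its unadjusted limma p was 0.0501. Crebbp, a histone acetyltransferase and the brightest of the list, had 0.32, and Hdac3, the deacetylase of the repressive complex, -0.50 with an interval from -1.22 to 0.23. The third receptor, Rarg, had 0.05, and the partners Rxra, Rxrb and Rxrg had -0.23, 0.13 and -0.14.

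Among 22 measured genes known to respond to retinoic acid the median was -0.01, with 9 positive and 13 negative values. Hoxb4, a homeobox gene of the trunk, was at 2.51, 2.47 and 3.05 in ventral and 2.79, 2.84 and 3.87 in dorsal arrays, a log2 fold change of -0.49. Its unadjusted limma p was 0.0449 with the block and 0.168 without it. Meis2, a homeobox cofactor, had 0.37, Tbx5, a limb and heart factor, -0.30, and Hoxd4, the brightest of the list, -0.06. Nr2f2, an orphan nuclear receptor, was at 4.17, 4.08 and 4.12 in ventral and 3.90, 4.05 and 3.76 in dorsal arrays, without overlap, and was picked after its values had been seen (log2 fold change 0.22). Dhrs3, which turns retinal back into retinol, had 0.16.

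For the 2 genes with the highest mean signal, the genes with the most similar pattern over the 6 arrays were sought by the root mean square difference of the log2 values after centring each gene. For Crabp2 these were Srsf1 (0.223), Igflr1 (0.265) and Atp6v1d (0.285), which shared the high value of ventral array 1, at 6.57, 7.46 and 5.51. For Stra6 they were Odf4 (0.0529), LOC108167929 (0.053) and Adgra1 (0.0609). These values describe the 6 arrays only.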

How the data were processed

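Transcript levels were measured on Affymetrix mouse Gene 2.0 ST arrays, 3 ventral and 3 dorsal. Per the labels' protocols, 200 to 1000 pg of RNA per sample was amplified before labelling, which adds noise to dim genes. The deposited table gives a log2 signal for every array and probe set. It was made with RMA and Affymetrix Expression Console, per the submitters' processing notes, which give no versions, and the log base was taken from the values. Of 25429 probe sets, 24675 had 1 gene symbol in the platform annotation and 754 were not listed. The fit was limma 3.58.1 under R 4.3.3 (lmFit and eBayes, two-sided, Benjamini-Hochberg over 24675 genes), with the replicate number as a block because both regions came from the same embryos. That arrays of equal number share an embryo is not stated. Deviations from the group means correlated across genes at 0.04, -0.01 and 0.06 for same-numbered arrays and at -0.06 to 0.03 for the others. This does not settle the pairing, so values without the block are given beside those that cross a threshold. On simulated data with equal spread on both sides and no shared replicate effect, the procedure returned on average the log2 fold changes put in. A linear fit returns this average by construction, so the run checked only the sign and scale of the output. Such data do not test the choice of the block. Named were the 10 members, up to 3 genes of each list with the smallest p and its brightest gene, and the 3 nearest patterns of the 2 brightest members. Rdh10, Rarg, Rxra, Rxrb, Rxrg, Dhrs3 and Nr2f2 fall outside this rule and were added after their values had been seen. Of the erythroid markers, 8 were measured and averaged 5.23 to 7.40 in ventral and 6.02 to 7.16 in dorsal arrays. The members and lists were chosen with earlier results of these data known. Promoters are RefSeq's on GRCm38.p6. Alternatives were other normalizations, filters on dim genes, a variance trend, array weights and left-out arrays.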

Additional observations from a re-analysis of the deposited data

How the results depend on the processing

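None of the 10 genes passed an adjusted p of 0.05 in limma under any alternative run, and with all 6 arrays every one kept its sign. Whether equal numbers pair the arrays was not settled by the data. Deviations of same-numbered arrays hardly correlated across all genes. The mean over the 8 measured erythroid markers was 5.23, 6.42 and 7.40 in ventral arrays and 6.12, 6.02 and 7.16 in dorsal arrays, highest in array 3 of both groups. This mean rests on the globin genes Hbb-y, Hbb-bh1, Hba-x and Hbb-bt, each highest in array 3 of both groups. Among the other markers only Slc4a1 was highest there in both groups. Alas2 was highest in ventral array 1 (3.81) and dorsal array 2 (3.79). In limma without the replicate block 1 gene of all 24675 passed, where 0 did with it. In limma the log2 fold changes of Stra6 without the replicate block and with it were both 0.46, since the block changes only the error. Leaving out arrays gave 0 to 5 genes called over all genes. At an unadjusted p, 1 of the 10 genes instead of 2 was counted in limma after cyclic loess (1), quantile normalization (1, added after the data had been seen) and with genes under the 25th percentile (1) or the median (1) left out, each time Cyp26b1, and 0 to 2 when arrays were left out, among them Crabp2 without both arrays numbered 2 and Rara without both numbered 3 or without dorsal array 3. With a mean-variance trend the 2 were Rbp4 and Cyp26b1, and Stra6 had an unadjusted limma p of 0.106. Between 2 and 4 genes had groups without overlap when single arrays were left out, where 26.5% to 32.2% of all genes did, since smaller groups overlap less often. With 4 were the sets without dorsal array 1 (32.2% of all genes), which added Cyp26a1 and Rarb, and without dorsal array 2 (30.8%), which added Cyp26b1 and Crabp2. With arrays left out, the log2 fold changes ranged from 0.35 to 0.59 for Stra6, from -0.57 to -0.31 for Rbp4 and from -0.69 to -0.31 for Cyp26b1. Sign changes occurred for Aldh1a2 (-0.46 to 0.16), Crabp1 (-0.13 to 0.28) and Crabp2 (-0.13 to 1.70). Cyclic loess moved the median log2 fold change of all genes to 0.00 against -0.06, and the ventral share of genes at an unadjusted p of 0.05 to 52.4% against 42.2%. The causes of these changes were not tested. Sets without a single array were fitted without the block. Filters removed genes under the limit and gave no value for them.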
